A study of Mus musculus with 2 samples.

Results

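The 10 genes Foxp3, Ikzf2, Ctla4, Icos, Tnfrsf4, Il2ra, Izumo1r, Nrp1, Maf and Rora, which mark regulatory and effector CD4 T cells, were followed in single-cell RNA counts of mouse blood. They were taken by symbol, and all 10 were found among the 27998 listed genes. Peripheral blood mononuclear cells came from female C57Bl/6 mice of 10 weeks: compound heterozygotes with the V377I and the del91 allele of Mvk, the gene of mevalonate kinase, and wildtype controls. Blood of 3 mice per genotype was pooled before separation over Ficoll, red cell lysis, a sort for DAPI-negative, Ter119-negative cells and capture on the 10x Chromium 3' v2 chemistry. Each genotype was therefore 1 library, in which genotype, pool and library cannot be told apart, and no test between genotypes was possible.

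As background, Foxp3 is the transcription factor that defines regulatory T cells, which restrain immune responses. Ikzf2 (Helios) is an Ikaros-family factor found in many of these cells and also in some cytotoxic and innate-like lymphocytes, and Maf and Rora are factors of helper, regulatory and innate-like T cells. On the surface, Il2ra is the high-affinity chain of the interleukin-2 receptor, Ctla4 the inhibitory and Icos a stimulatory member of the CD28 family, Tnfrsf4 (OX40) a costimulatory receptor of the TNF receptor family, Izumo1r the folate receptor FR4, and Nrp1 a semaphorin co-receptor seen on thymus-derived regulatory cells.

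The mutant library held 14513059 UMIs (unique molecular identifiers, 1 per captured RNA molecule) and the wildtype library 15385199. Barcodes with at least 800 UMIs, at least 200 genes and at most 10% mitochondrial UMIs numbered 4190 and 5225, with medians of 1968 and 2036 UMIs; 28 barcode sequences occurred in both. T cells had 2 or more UMIs of Cd3d, Cd3e and Cd3g together. Of these, 1418 mutant and 1528 wildtype cells had no UMI of Cd8a or Cd8b1 and are called CD8-negative, and 819 and 1185 had 2 or more and are called CD8-positive. NK cells numbered 188 and 837 and B cells 1169 and 1048. CD8-negative T cells made up 33.8% of filtered mutant and 29.2% of filtered wildtype cells.

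The label CD4 T cell was only in part borne out by RNA. A Cd4 UMI was seen in 19.8% of mutant and 22.4% of wildtype CD8-negative T cells, against 0.855% and 2.45% of the CD8-positive ones. At medians of 1991.5 and 2115 UMIs per cell a transcript can be missed, so a cell without a Cd4 UMI can still be a CD4 T cell. All 7 T cell markers checked (Cd3d, Cd3e, Cd3g, Cd247, Lck, Cd5 and Cd6) were present, at 3376 and 3476 CPM in sum (CPM are a gene's share of all UMIs in the gate, times 1e+06). The same cells carried UMIs of other lineages. Summed NK markers stood at 184 CPM in mutant and 436 CPM in wildtype cells, innate-like T cell markers (Zbtb16, Cxcr6, Sox13, Cd163l1) at 36.3 and 75.3, monocyte markers at 980 and 438, B cell markers at 699 and 461, and erythroid genes at 18234 and 2201. Siglech was at 0 in the mutant cells, and Sox13, Il1rl1 and Il13 were at 0 in the wildtype cells. Their part in the results below was not tested beyond the subsets given there. Cells with 2 or more B cell UMIs or 5 or more monocyte UMIs (134 mutant, 102 wildtype) were therefore also left out, a choice made after seeing the data, leaving 1284 and 1426 single-lineage CD8-negative T cells. In these, monocyte markers were at 235 and 204 CPM and B cell markers at 135 and 83.0. Other lineages still differed there: NK markers stood at 193 and 446 CPM, innate-like markers at 39.9 and 78.1, platelet markers at 81.7 and 21.7 and erythroid genes at 17969 and 2428, so single-lineage refers to B cell and monocyte UMIs alone.

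In the GRCm38 annotation (GENCODE M21) Ctla4 lies on chromosome 1 at 60887000-60915832 and Icos at 60977927-61000320, both on the plus strand and 62094 bases apart, in the locus that also holds Cd28. Foxp3 lies on chromosome X (7573644-7595245, plus), and its last exon, the part a 3' library reads, overlaps Ccdc22 on the minus strand. For Ikzf2 (chromosome 1, 69531214-69687245, minus) the last exon of the transcript used, 69538037-69539492, overlaps the plus-strand Gm29114. That exon ends short of the annotated gene end, as do those used for Icos, Izumo1r and Rora. Overlaps beyond these exons were not checked. How reads were assigned by strand is not given in the sources used here, so the Foxp3 and Ikzf2 counts carry that uncertainty. Izumo1r (14885814-14903949, minus) and Rora (68653786-69388246, plus) are on chromosome 9, Nrp1 (128358604-128503363, plus) and Maf (115682942-115707794, minus) on chromosome 8, Tnfrsf4 on chromosome 4 (156013843-156016612, plus) and Il2ra on chromosome 2 (11642807-11693193, plus).

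RefSeq promoter windows of GRCm38.p6, from 250 bases before to 50 after a start, were available for 7 of the 10 genes, with 2 windows for Foxp3. The downstream window of Foxp3, the gene that defines regulatory cells, is shown with those of Ctla4 and Izumo1r. This pair was detected in the same cells more often than expected within 5 bins of depth (values under the pairs). Capitals mark matches, on either strand, to the TATA box TATAAA, the forkhead motif GTAAACA, the STAT motif TTCNNNGAA, the Rora motif AGGTCA and the Runx motif TGTGGT. A match on the other strand reads as its reverse complement, and no matches overlap in the windows printed.
Foxp3, chrX:7580233-7580532, plus: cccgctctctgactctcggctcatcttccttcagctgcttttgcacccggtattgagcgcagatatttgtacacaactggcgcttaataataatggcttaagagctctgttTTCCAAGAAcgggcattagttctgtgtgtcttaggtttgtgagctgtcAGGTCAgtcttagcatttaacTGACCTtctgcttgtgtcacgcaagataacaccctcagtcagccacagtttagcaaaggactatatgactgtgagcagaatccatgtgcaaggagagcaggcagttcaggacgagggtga
Ctla4, chr1:60908775-60909074, plus: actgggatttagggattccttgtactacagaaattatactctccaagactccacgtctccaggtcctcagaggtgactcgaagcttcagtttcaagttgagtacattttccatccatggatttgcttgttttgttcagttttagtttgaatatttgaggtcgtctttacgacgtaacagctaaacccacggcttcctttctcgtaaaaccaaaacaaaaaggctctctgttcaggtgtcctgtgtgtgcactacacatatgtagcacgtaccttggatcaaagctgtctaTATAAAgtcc
Izumo1r, chr9:14903718-14904017, minus: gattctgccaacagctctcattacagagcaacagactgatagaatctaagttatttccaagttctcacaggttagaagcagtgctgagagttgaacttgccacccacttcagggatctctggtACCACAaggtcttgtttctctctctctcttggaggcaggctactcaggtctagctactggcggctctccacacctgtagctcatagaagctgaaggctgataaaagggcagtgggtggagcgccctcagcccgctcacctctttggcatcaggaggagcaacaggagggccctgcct
The Foxp3 window printed holds 1 TTCNNNGAA and 2 AGGTCA matches, that of Ctla4 1 TATAAA, and that of Izumo1r 1 TGTGGT. The other Foxp3 window, chrX:7579426-7579725, holds 1 TATAAA and no match to the other motifs. Among all 32851 windows, 8.30% hold TTCNNNGAA, 16.3% AGGTCA, 13.6% TATAAA, 16.8% TGTGGT and 3.65% GTAAACA. A match is a string of letters and not a measured site.

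Levels of the 10 genes in each gate were set side by side first. Of the 10, Izumo1r had the most UMIs in CD8-negative T cells, 306 (100 CPM) in mutant and 347 (101 CPM) in wildtype cells. Icos followed with 190 (62.1 CPM) and 272 (78.8 CPM), and Ikzf2 with 110 (36.0 CPM) and 126 (36.5 CPM). Izumo1r was 4.79-fold above CD8-positive T cells in the mutant (95% interval 3.51 to 6.68) and 3.96-fold above them in the wildtype (3.12 to 5.06), and 16.4-fold (9.60 to 30.3) and 25-fold (12.5 to 58.3) above B cells. Icos and Ikzf2 were shared with CD8-positive T cells: the ratio of CD8-negative to CD8-positive cells was 1.36 and 1.64 for Icos and 1.55 and 1.44 for Ikzf2, each with an interval above 1. Maf stood 8.50-fold and 4.68-fold higher in CD8-negative than in CD8-positive T cells, but NK cells carried it at 12 and 10.8 CPM, and the ratio of CD8-negative T to NK cells, 1.61 (0.651 to 5.13) and 1.51 (0.862 to 2.76), included 1. Rora had a ratio of CD8-negative to CD8-positive cells of 1.44 (0.915 to 2.31) and 2.07 (1.47 to 2.95), and Ctla4 of 1.56 and 2.12. Ctla4 also stood only 1.73-fold (1.10 to 2.77) and 2.43-fold (1.52 to 4.07) above B cells, where Icos stood 28.4-fold and 19.6-fold above them. Near-empty barcodes, which sample free RNA, carried Icos at 30.3 and 49.9 CPM and Izumo1r at 48.0 and 58.6 CPM, below both genes' levels in CD8-negative T cells. For Ctla4 in both libraries and Foxp3 in the mutant, free RNA stood above that level (values below). All intervals cover counting error only, since cells of 1 pool are not replicates. CPM are per UMI and not per length, and the levels of different genes also reflect how well each is captured.

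**Figure D1:**
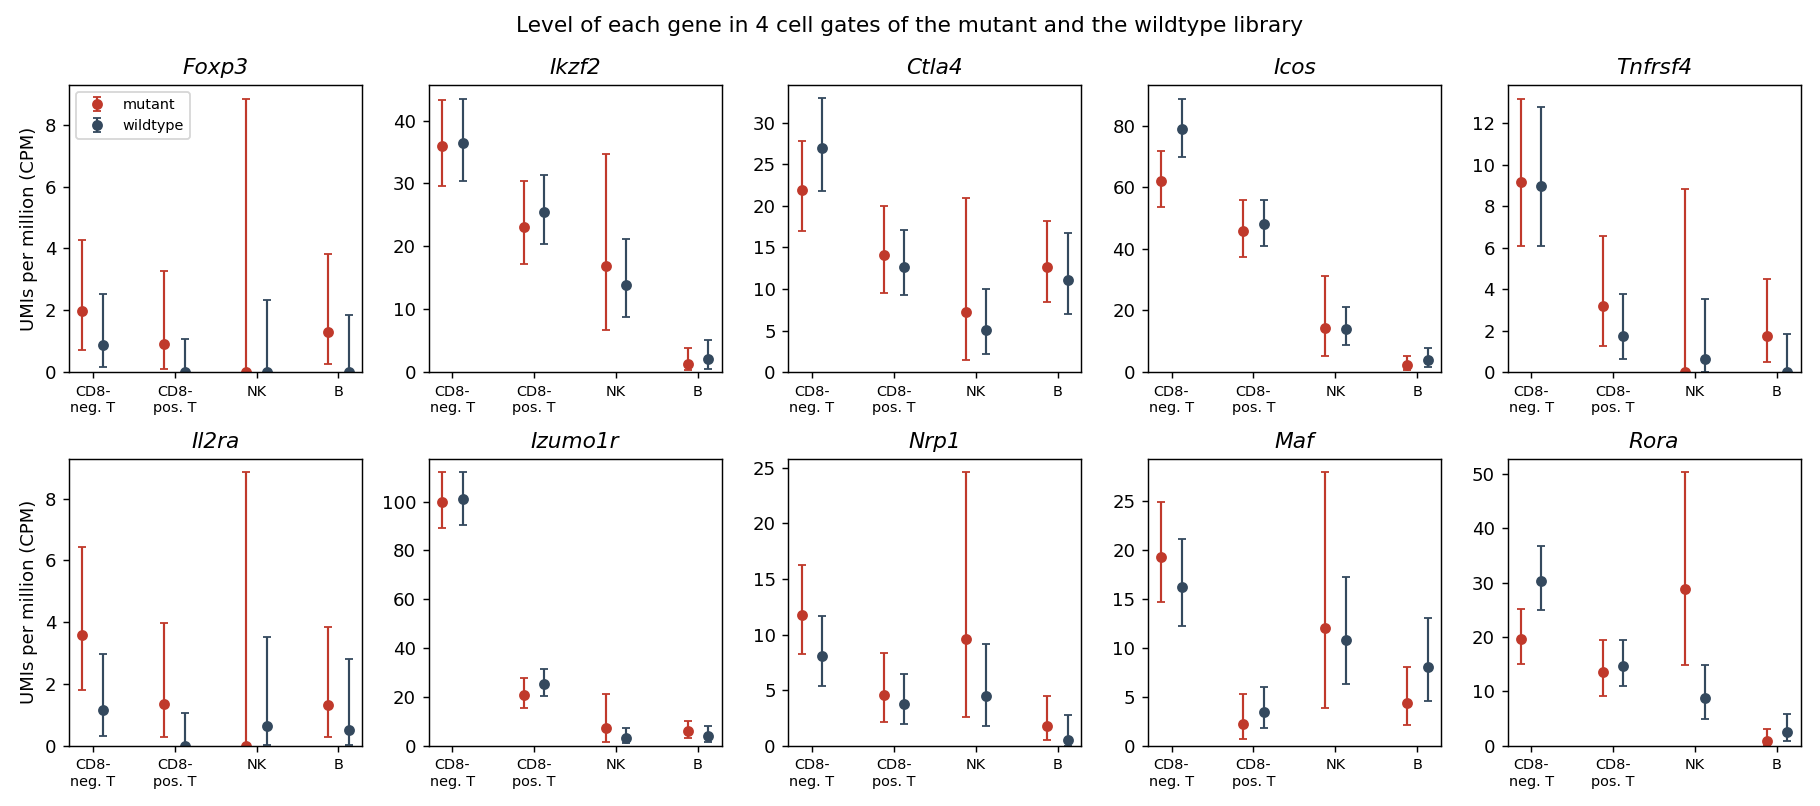
Level of each gene (vertical axis, CPM) in CD8-negative T, CD8-positive T, NK and B cells of the mutant (red) and wildtype (blue) library, with exact 95% Poisson intervals for counting error. Izumo1r stands near 100 CPM in CD8-negative T cells of both libraries, Rora is lower in mutant CD8-negative T cells (19.6 against 30.4 CPM), and Foxp3 and Il2ra lie near the floor in every gate.

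Foxp3 itself was rare. It had 6 UMIs in 6 of 1418 mutant cells (0.423%, 0.155 to 0.919) and 3 UMIs in 2 of 1528 wildtype cells (0.131%, 0.0159 to 0.472). B cells, which should lack it, had 3 of 1169 (0.257%) and 0 of 1048, which allows up to 0.286%, at median depths of 1580 and 1576 UMIs against 1991.5 and 2115 in the CD8-negative T cells. The T cell share thus overlapped the B cell background in each library, and the ratio of the libraries (CPM 2.26, 0.482 to 13.9) included 1. NK cells had no Foxp3 UMI in 188 and 837 cells. Near-empty barcodes with 1 to 20 UMIs held 3 and 0, or 7.59 CPM (1.56 to 22.2) and 0 CPM (upper bound 8.01). CD8-negative T cells had 1.96 and 0.869 CPM, so in neither library was Foxp3 set apart from free RNA.

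The few Foxp3 cells still carried other members. Of the 8 cells, 7 (87.5%) had at least 1 other member, while 35.0% of all mutant and 37.6% of all wildtype CD8-negative T cells had at least 1 of the 10. Izumo1r was in 3 of 6 mutant and 2 of 2 wildtype cells, against 15.8% and 14.5% of the cells without Foxp3. These shares were not matched for depth. Within 5 bins of depth, Foxp3 and Izumo1r were expected together in 0.958 mutant and 0.248 wildtype cells. The ratios to expectation, 3.13 (0.646 to 9.15) and 8.05 (0.975 to 29.1), included 1. Among the Foxp3 pairs only that with Rora in the mutant, on 2 cells, had an interval above 1 (9.96, 1.21 to 36.0). Ikzf2 and Ctla4 were each in 2 of 6 mutant cells and in 0 of 2 wildtype cells. In the single-lineage gate 4 mutant and 2 wildtype Foxp3 cells were left, of which 83.3% had another member. Of these, 0 had Ikzf2 and 1, a mutant cell, had Ctla4, so both mutant Foxp3 cells with Ikzf2 were among the cells left out. The other members share these cells, and no more than counts can be given for so few. Too few cells carried Foxp3 to name genes that go with it: the 2 wildtype cells held 85 genes with 10 or more UMIs, of which 57 were ribosomal protein genes.

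Il2ra was nearly as rare, with 11 UMIs in 8 mutant and 4 UMIs in 4 wildtype CD8-negative T cells. Its ratio was 3.10 (0.919 to 13.4), and 4.34 (1.15 to 24.2) in the single-lineage cells, where it rested on 11 against 3 UMIs. With under 50 UMIs in both libraries together, neither Il2ra nor Foxp3 counted as measured.

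The libraries were then compared within CD8-negative T cells, where 8 of the 10 members were measured. A gene was called when its CPM differed by 1.5-fold or more. Of all 7397 measured genes, 2.76% were called higher and 3.39% lower in the mutant library; of the 8 members none was called higher and 1, Rora, lower. The median log2 ratio of the members was -0.01 and that of all measured genes -0.02. By the interval, Icos and Rora lay below 1 (6.88% of all measured genes did) and no member above (4.68%). In the single-lineage cells, with 6942 genes measured, the calls on members were the same: none higher (2.23% of all genes), Rora lower (3.69%), Icos and Rora with the interval below 1 (7.07%) and none above (3.98%). UMIs of the 10 members summed to 285 CPM in mutant and 309 CPM in wildtype cells, a ratio of 0.925 (0.845 to 1.01). In bulk sums of this kind, fewer cells with a gene and less RNA per cell cannot be told apart, so shares of cells are given as well.

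Rora, a nuclear receptor of innate-like and effector T cells, had 60 UMIs (19.6 CPM) in mutant and 105 (30.4 CPM) in wildtype CD8-negative T cells. It was seen in 48 of 1418 cells (3.39%, 2.51 to 4.46) and 81 of 1528 (5.30%, 4.23 to 6.55). The ratio was 0.645 (0.461 to 0.894), and 0.652 (0.459 to 0.919) in single-lineage cells. With each cell thinned to 800 UMIs, the minimum of the gate so that no cell was lost, 1.83% and 2.03% of cells had a Rora UMI in 1 draw, where the UMI ratio was 0.822 (0.489 to 1.37) and no longer called, and 1.52% and 2.27% in expectation over all draws, a ratio of 0.670. With cells above 6000 UMIs left out it was 0.696 and with the mean of CPM per cell 0.672, both just inside 1.5-fold. NK markers and innate-like markers were lower in the mutant gate as well (values above). When cells with 3 or more UMIs of NK receptor genes were left out of the single-lineage cells, Rora was at 0.657 (0.456 to 0.937), and when cells with an innate-like marker were left out it was at 0.676 (0.445 to 1.01), where the interval included 1. Among single-lineage cells with a Cd4 UMI it had 8 and 33 UMIs (0.322, 0.128 to 0.710) and among those without 46 and 65 (0.811, 0.543 to 1.2); the difference between these ratios was not tested.

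Icos, the costimulatory receptor of follicular helper and effector cells, was next. Its 62.1 and 78.8 CPM came from 11.1% (9.55 to 12.9) and 15.1% (13.3 to 16.9) of cells, and the CPM ratio was 0.788 (0.651 to 0.952). It was 0.814 (0.668 to 0.990) in single-lineage cells and 0.972 (0.714 to 1.32) in 1 draw of thinning to 800 UMIs, where 5.29% and 5.82% of cells had a UMI, against 4.88% and 6.01% in expectation. Ctla4, its inhibitory neighbour, had 67 UMIs (21.9 CPM) and 93 (27.0 CPM), with a ratio of 0.813 (0.585 to 1.12) that included 1. In CD8-positive T cells the ratios of Icos, 0.956 (0.739 to 1.23), and Rora, 0.924 (0.568 to 1.48), included 1; there 5.30% of all measured genes had an interval above 1 and 4.92% below, and no member did.

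For the other measured members the intervals included 1. Ikzf2 had a ratio of 0.985 (0.756 to 1.28), Izumo1r 0.995 (0.850 to 1.16), Tnfrsf4, with 28 and 31 UMIs, 1.02 (0.589 to 1.76), Maf, with 59 and 56, 1.19 (0.810 to 1.74) and Nrp1, with 36 and 28, 1.45 (0.861 to 2.47). The intervals of Izumo1r and Ikzf2 leave out a difference of 1.5-fold in either direction, by counting error, while those of Tnfrsf4, Maf and Nrp1 do not. For Ikzf2 this did not hold in every subset: the ratio was 0.559 (0.176 to 1.55) among cells with a Cd4 UMI and 1.22 (0.878 to 1.70) in single-lineage cells outside the set with NK receptor UMIs. Tnfrsf4 stood at 0.237 (0.0256 to 1.09) among cells with a Cd4 UMI. Nrp1 stood at 3.23 (1.32 to 9.0) in 1 draw of thinning to 800 UMIs and at 2.61 (0.986 to 7.64) among cells with a Cd4 UMI. In CD8-positive T cells 5 members were measured; none was called in either direction, against 2.46% of 6830 measured genes called higher and 3.22% lower. Their median log2 ratio was -0.10 and that of all measured genes 0.02.

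**Figure D2:**
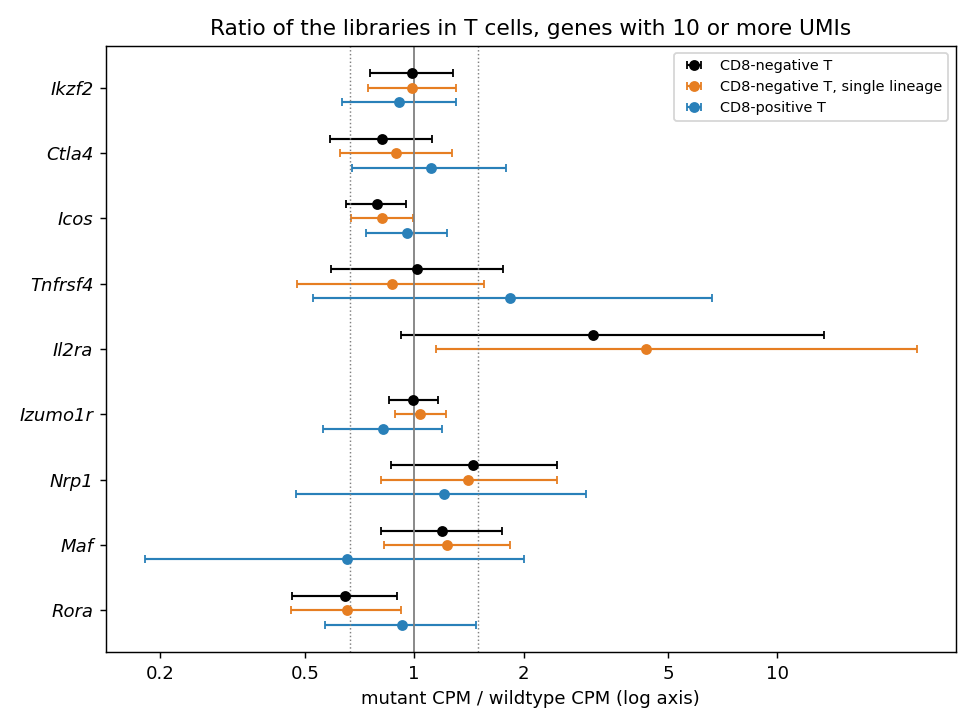
Ratio of mutant to wildtype CPM (horizontal log axis) with exact 95% intervals for each gene with 10 or more UMIs in the gate, in CD8-negative T cells (black), the single-lineage ones (orange) and CD8-positive T cells (blue). Dotted lines mark 1.5-fold; the interval of Rora lies below 1 in both CD8-negative sets (0.645 and 0.652) and spans 1 in CD8-positive cells.

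In NK cells no member reached 50 UMIs, while 3.86% of 4640 measured genes were called higher and 9.31% lower. The summed members stood at 96.0 and 61.5 CPM, a ratio of 1.56 (1.05 to 2.28). Rora had 12 UMIs in 11 of 188 mutant cells (28.8 CPM) and 14 UMIs in 12 of 837 wildtype cells (8.87 CPM), a ratio of 3.24 (1.37 to 7.56), against the 0.645 of CD8-negative T cells. Erythroid genes in these cells were at 5374 and 275 CPM and monocyte genes at 926 and 586; their part in the result was not tested.

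In B cells 1 member was measured, Ctla4, with 29 UMIs (12.7 CPM) and 22 (11.1 CPM), and it was not called; 3.91% of 6549 measured genes were higher and 2.61% lower. Ctla4 was not spread evenly over B cells. It was in 15 of the 132 mutant B cells with a UMI of Zbtb32 or Bhlhe41, factors of B-1 and memory B cells (11.4%, 6.5 to 18.0), and in 10 of the 1037 without (0.964%, 0.463 to 1.77). In the wildtype library it was in 8 of 73 (11.0%, 4.85 to 20.5) and 10 of 975 (1.03%, 0.493 to 1.88). The first set was deeper, with medians of 3797.5 and 4078 against 1550 and 1556 UMIs. In CPM, which scale by depth, the ratio of the first to the second set was 6.56 (2.90 to 15.8) and 6.10 (2.40 to 15.5). Zbtb32 and Bhlhe41 were chosen after values were seen. Near-empty barcodes carried Ctla4 at 45.5 and 39.1 CPM, above its level in CD8-negative T cells, and the part of free RNA in the B cell value was not tested.

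The members were then examined cell by cell. In CD8-negative T cells, 65.0% of mutant and 62.4% of wildtype cells had no UMI of any of the 10, and 39 (2.75%, 1.96 to 3.74) and 42 (2.75%, 1.99 to 3.70) had 3 or more, a ratio of 1.0 (0.630 to 1.59). Cells with exactly 2 members were 72 (5.08%) and 112 (7.33%), a ratio of 0.693 (0.508 to 0.940), which was 0.759 (0.550 to 1.04) in single-lineage cells and 1.18 (0.709 to 1.97) after thinning to 800 UMIs. In single-lineage cells with 3 or more members, 32 and 42, Izumo1r was present in 68.8% and 76.2%, Icos in 53.1% and 71.4%, Rora in 50% and 40.5%, Maf in 40.6% and 42.9%, Nrp1 in 43.8% and 23.8%, and Foxp3 in 2 cells of each library. Of the B cells none had 3 or more, which allows up to 0.257% and 0.286% of 1169 and 1048 cells.

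Pairs of members were counted against the number expected from the shares of both within 5 bins of depth. Depth still varied within a bin, and its remaining part was not tested. Of 45 pairs, 26 occurred in 3 or more single-lineage CD8-negative T cells of each library, and 24 of them were above expectation in both. In 7 the lower bound lay above 1 in both. These were Ctla4 with Izumo1r, Ctla4 with Nrp1, Izumo1r with Nrp1, Maf with Rora, Nrp1 with Rora, Tnfrsf4 with Maf and Tnfrsf4 with Nrp1. A pair expected in fewer than 3 cells could enter only by lying above expectation, so the count of 24 was in part fixed by this rule. Tnfrsf4 with Nrp1, for example, was expected in 0.393 cells of each library. Of the 7 pairs, only Ctla4 with Izumo1r and Izumo1r with Nrp1 (3.52 and 3.13) were expected in more than 3 cells of both libraries. Ctla4 and Izumo1r met in 17 mutant cells against 8.53 expected (ratio 1.99, 1.16 to 3.19) and 23 wildtype cells against 9.79 (2.35, 1.49 to 3.53). Maf and Rora met in 9 against 1.42 (6.35, 2.90 to 12.1) and 9 against 2.26 (3.98, 1.82 to 7.56). Ikzf2 with Icos (1.34 and 0.785) and Ikzf2 with Izumo1r (0.893 and 1.33) were the 2 pairs not above expectation in both. In the whole CD8-positive gate 6 pairs were that frequent, 3 were above expectation in both libraries, and none had both lower bounds above 1. Pairs share genes and cells, so these counts are not independent.

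**Figure D3:**
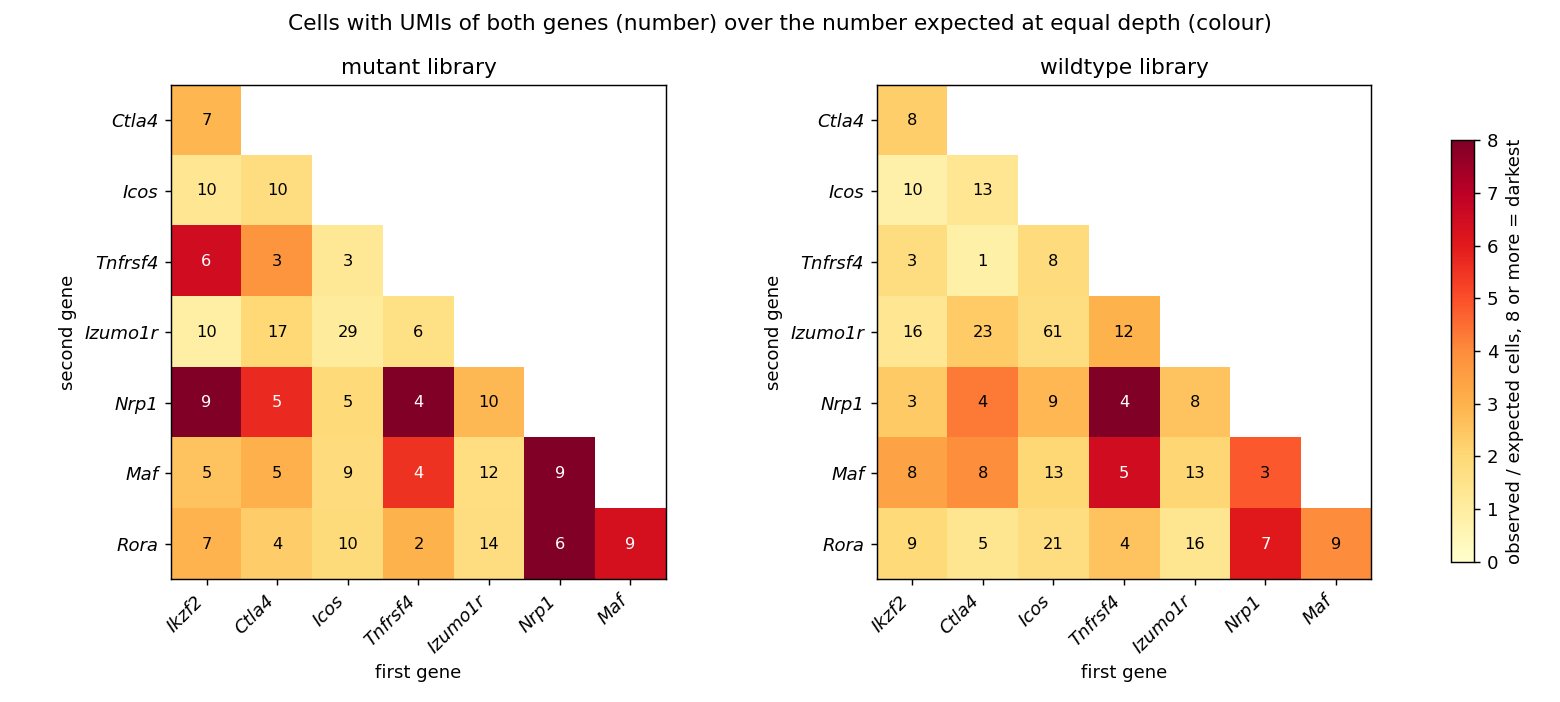
Single-lineage CD8-negative T cells with UMIs of both genes of a pair (number in each square) over the number expected within bins of depth (colour, observed over expected), in the mutant and the wildtype library. Foxp3 and Il2ra are not drawn, since their pairs rest on few cells. Of the pairs drawn, Nrp1 with Maf, Tnfrsf4, Ikzf2 and Rora in the mutant and with Tnfrsf4 in the wildtype library are darkest, at 8 or more, while those of Icos with Ikzf2 and Izumo1r with Ikzf2 are pale in both libraries.

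Ikzf2 did not follow Cd4 UMIs in these cells, though cells without a Cd4 UMI can still be CD4 T cells. Among single-lineage cells with a Cd4 UMI it stood at 10.9 CPM in mutant and 17.8 CPM in wildtype cells, and among those without at 45.3 and 45 CPM, a ratio of 0.240 (0.0859 to 0.543) and 0.394 (0.203 to 0.704). It was in 12 of 42 mutant (28.6%, 15.7 to 44.6) and 26 of 140 wildtype cells (18.6%, 12.5 to 26.0) with 3 or more UMIs of Ncr1, Klrb1c, Klre1 and Klrd1, and in 4.03% and 3.81% of the others. In CPM these cells had 4.95-fold (2.79 to 8.32) and 4.69-fold (3.18 to 6.87) more. Izumo1r showed the opposite, at 0.230 (0.0472 to 0.680) and 0.315 (0.170 to 0.537) of its level in the others. These cells made up 3.27% of mutant and 9.82% of wildtype single-lineage cells, so the Ikzf2 ratio was also taken apart: it was 1.29 (0.704 to 2.26) within them and 1.22 (0.878 to 1.70) outside.

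Genes that went with a member were then ranked. The measure was the CPM in single-lineage cells with the member over that in cells without. The rank was the smaller of the lower interval bounds of both libraries, among genes with 10 or more UMIs in the member's cells of each. This rule was set after the data were seen. A gene with few UMIs in the gate could enter only by being high in the member's cells. The ratios of the genes named, picked by these same ratios, are thus in part fixed by the rule and only describe these cells. Genes named here are among the 8 ranked highest. For Ikzf2 (62 and 75 cells) Spry2, a feedback inhibitor of receptor signalling, had ratios of 13 and 7.59, the calcium-binding S100a6 6.34 and 4.59, the chemokine Ccl5 7.18 and 3.30, and the NK receptor Klrc1 5.51 and 4.93. In CD8-positive T cells Klra7 (7.57 and 5.05) and Cd7 (3.73 and 2.23) went with it.

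Rora and Maf were examined by innate-like markers. In cells with an innate-like marker UMI, 40 mutant (3.12%) and 93 wildtype (6.52%), Rora was detected in 27.5% (14.6 to 43.9) and 24.7% (16.4 to 34.8), against 2.65% and 3.98% of the others. Maf was in 22.5% (10.8 to 38.5) and 9.68% (4.52 to 17.6), against 2.73% and 2.40%. Rora CPM were 147 and 127 inside the set, a ratio of 1.16 (0.568 to 2.24), and Maf CPM 105 and 45.2, a ratio of 2.33 (0.886 to 6.03) from 10 and 11 UMIs. With Rora (44 and 76 cells) went S100a4, a calcium-binding protein of memory cells, at ratios of 41.5 and 20.6, 2810417H13Rik (15.3 and 17.4), the chemokine receptors Ccr2 (11.2 and 8.56) and Cxcr6 (12.6 and 6.99), and S100a6 (7.42 and 6.99). With Maf went S100a4 (15.3 and 14.5) and the channel proteins Tmem176b (27.4 and 16.2) and Tmem176a (64.3 and 14.9). Cxcr6 is one of the innate-like markers, so its place here is not independent of that split.

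**Figure D4:**
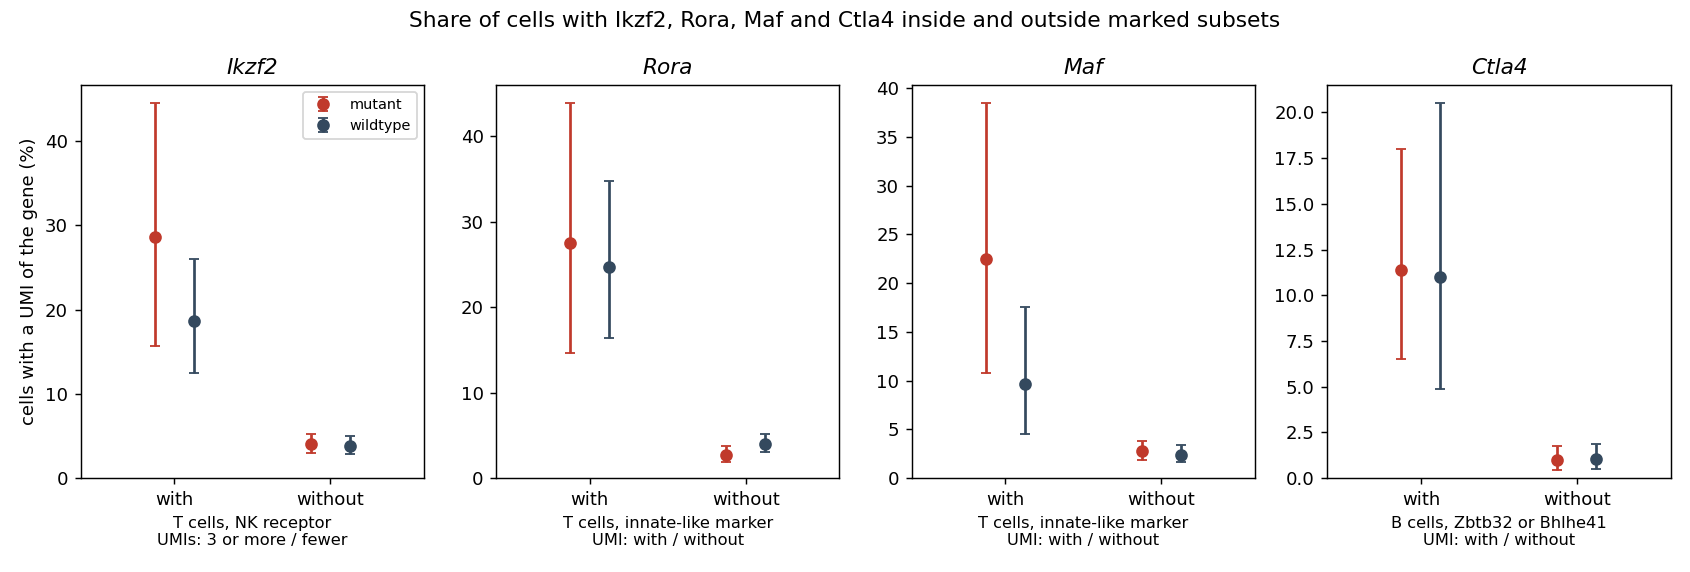
Share of cells with a UMI of the gene (vertical axis, percent, exact 95% intervals) inside and outside a marked subset, for Ikzf2, Rora and Maf in single-lineage CD8-negative T cells and Ctla4 in B cells of the mutant (red) and wildtype (blue) library. In both libraries each gene is more frequent inside its subset, for example Ctla4 in 11.4% and 11.0% of marked B cells against 0.964% and 1.03% of the rest.

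The surface receptors were ranked in the same way. Izumo1r (217 cells in each library) went with Cd5 (2.17 and 1.76), which tunes T cell receptor signals, and its relative Cd6 (1.6 and 1.58), and with the members Ctla4 (2.43 and 2.63) and Nrp1 (2.92 and 3.23). Icos (148 and 217 cells) went with S100a4 (5.18 and 3.45), the chemokine receptor Cxcr3 (3.22 and 2.49), the integrin Itgb1 (2.42 and 2.14), Rora (2.81 and 2.92) and the helper factor Gata3 (1.81 and 1.74). Nrp1 (24 and 20 cells) and Tnfrsf4 (21 and 26 cells) both went with S100a4, S100a6 and Itgb1: for Itgb1 the ratios were 14.4 and 6.62 with Nrp1 and 4.66 and 4.24 with Tnfrsf4. Before the cells of mixed lineage were left out, monocyte genes such as Lyz2 led with Nrp1, and B cell genes such as Ms4a1 with Ctla4. Cells with 3 or more members, against cells with none, carried S100a4 at 344 against 2.45 CPM in mutant and 348 against 12.8 CPM in wildtype cells, and Itgb1 at 839 against 35.5 and 631 against 75.4. The limit given for the ranking rule holds for these values as well.

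The other genes of these pathways were compared in CD8-negative T cells by lists, some of which also hold members. The CD28 family list holds Ctla4 and Icos, the Ikaros list Ikzf2, the TNF receptor partner list Tnfrsf4 and the interleukin-2 list Il2ra. Of these members only Il2ra was not measured. Lists also share genes: Tbx21 and Cxcr6 stand in both the helper and effector and the innate-like list. Il2rb stands in the regulatory, interleukin-2 and innate-like lists. A call on a shared gene thus recurs in each of its lists. Background shares are the 2.76% higher and 3.39% lower given above. Of the 30 helper and effector genes 18 were measured, and 7 were called lower (Tbx21, Cxcr3, Ifng, Bhlhe40, Id2, Cxcr6 and Il18rap) and none higher, with a median log2 ratio of -0.24. Id2, an inhibitor of E proteins, had 154 and 261 CPM (0.590, 0.527 to 0.661). Cxcr6 had 28.4 and 67.8 CPM (0.419, 0.324 to 0.539). S100a6 was at 1.35 (1.23 to 1.48) in the whole gate but at 0.643 (0.560 to 0.736) in the single-lineage cells, where 8 of 17 measured helper and effector genes were called lower and the median was -0.48. Of 26 regulatory genes 10 were measured, with Klrg1 and Il10ra lower and a median of -0.18; Tnfrsf18 (GITR) had 79.8 and 93.6 CPM (0.852, 0.719 to 1.01) and Capg 119.6 and 82.9 (1.44, 1.23 to 1.69). Of 11 innate-like genes 8 were measured, with Cxcr6, Klrb1c and Tbx21 lower, Blk higher and a median of -0.45. In single-lineage cells 7 were measured, with Tmem176a, Cxcr6, Klrb1c and Tbx21 lower, none higher and a median of -0.81; Blk, a kinase also of B cells, was not among the measured genes there.

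In the lists nearer to the receptors few genes were called. Of the interleukin-2 receptor and signalling genes 9 of 11 were measured and only Socs3 was called (0.619, 0.490 to 0.779); Il2rb had 41.8 and 62.0 CPM (0.675, 0.538 to 0.844). Of the CD28 family and its ligands 6 of 9 were measured, with Cd274 higher (1.67, 0.954 to 2.96), and Cd28 had 647 and 718 CPM (0.901, 0.849 to 0.956). None of the 6 measured TNF receptor partners, the 4 measured Ikaros genes or the 15 resting genes was called; Ccr7 stood at 0.909 (0.860 to 0.960) and Lef1 at 1.02 (0.959 to 1.09). In single-lineage cells the calls differed: none of the 4 measured CD28 family genes was called, Stat5b was called higher (1.57, 1.18 to 2.1) beside Socs3 lower, and Ikzf3 was called lower (0.647, 0.444 to 0.934). NK markers in the gate were at 184 and 436 CPM, and their part in the effector and innate-like values was not tested.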

How the data were processed

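The deposited files held raw UMI counts per gene and barcode, whole numbers that the authors made with Cell Ranger 2.1.1 on mm10, per the submitters' processing notes; all 737280 barcodes were listed, and the strand setting is not given in the sources used here. Cells were filtered and gated here by UMIs as stated in the report (NK: not T, 3 or more UMIs of Ncr1, Klrb1c, Klre1 and Klrd1; B: not T, 3 or more of Cd79a, Cd79b and Ms4a1). No doublet caller was run; cells of mixed lineage were counted and left out as an alternative. UMIs were summed per gate and library and scaled to CPM. With 1 library per genotype no test was made. Poisson, Clopper-Pearson and conditional 95% intervals cover counting error only, and a 0 allows up to 3 counts. Genes with 50 or more UMIs counted as measured. Intervals were checked on simulated counts before use. The members and lists were chosen with earlier results of these data known. All members were named, and of each list up to 4 genes with the most UMIs could be; others named in the lists were called past 1.5-fold. Genes going with a member, subsets by marker and single-lineage cells were chosen after values were seen. Of the marker and gene lists, 2 genes are not reported here and entered no value. Tools were Python 3.11.15, numpy 2.4.6, scipy 1.17.1, pandas 2.3.3 and matplotlib 3.10.9.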

Additional observations from a re-analysis of the deposited data

Results flagged for a closer look

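Rora differed in opposite directions between the libraries in 2 cell types. The mutant to wildtype ratio was 0.645 in CD8-negative T cells and 3.24 in NK cells, and the intervals (0.461 to 0.894 and 1.37 to 7.56) did not overlap. The difference between the cell types was not tested, the NK value rests on 12 and 14 UMIs, and over the alternatives tried it ran from 2.23 to 3.82.

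Members were also counted in cells outside the 4 gates and outside T cells with 1 CD8 UMI (375 mutant, 318 wildtype), above the limit that a count of 0 allows. Ikzf2 had 12 UMIs in each library, Icos (mutant, then wildtype) 17 and 11, Izumo1r 22 and 21, Nrp1 10 and 13, Maf 7 and 5, and Rora 11 and 9. Of the 13 wildtype Nrp1 UMIs, 3 were in the 4 cells with 2 or more UMIs of Siglech, a marker of plasmacytoid dendritic cells. No comparison used these cells.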

How the results depend on the processing

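No paired analysis was possible because each genotype had 1 library and the labels give no replicate numbers. Of 12 alternatives, 2 were chosen after seeing the data. No ratio whose main interval left out 1 changed direction, and 115 values of the main results stayed within their intervals or counts while 13 did not. Ratios whose interval included 1 were not checked for direction, and the summed member and Foxp3 ratios given next crossed 1. In 1 draw, thinning to 800 UMIs moved the summed member ratio in CD8-negative T cells to 1.13, for which no expectation over draws was taken. The Foxp3 share ratio moved from 3.23 to 0.539 in that draw, on 1 mutant and 2 wildtype cells. In expectation over all draws the Foxp3 share ratio was 3.13. Restricting to cells with a Cd4 UMI moved the summed member ratio to 0.827 and the share of Foxp3 cells with another member to 100%. The number of members called lower in CD8-negative T cells became 0 in that draw of thinning, with a Cd4 UMI required, with cells above 6000 UMIs left out, and with the mean of CPM per cell. The number called higher became 1 with a minimum of 1200 UMIs, with at most 5% mitochondrial UMIs, with T cells carrying B or NK UMIs left out, and with the mean of CPM per cell. The number called lower in CD8-positive T cells became 1 with T cells carrying B or NK UMIs left out. With a Cd4 UMI required, Rora was at 0.298 (0.120 to 0.654), farther from 1, on too few UMIs to be counted as measured. For the other changed counts the cause was not tested. Rora in CD8-negative T cells ranged from 0.298 to 0.822 and Icos from 0.740 to 0.972, each below 1 in all 10 of its settings. In the other direction, Nrp1 ranged from 1.37 to 3.23 and Maf from 1.14 to 1.35, each above 1 in all 10, though their main intervals included 1. Foxp3 and Il2ra had too few UMIs for a usable ratio.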
